A study of Homo sapiens with 83 samples.

Results

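The 9 genes MDM2, MDM4, GDF15, BTG2, SESN1, FDXR, TP53I3, RRM2B and ZMAT3 of the p53 pathway were followed through the time course. They were picked by gene symbol, with earlier results of these data known, so counts set beside the share of all genes are descriptions. All 9 had 1 entry each among the 60237 genes of the table. RNA sequencing covered 83 libraries from SHEP and SKNAS, human neuroblastoma cell lines that both carry a constitutively expressed N-MYC-ER, in which the hormone-binding part of the estrogen receptor is joined to N-MYC. Activation by 4-hydroxytamoxifen gave the MYC-ON state, and ethanol, its solvent, the MYC-OFF state. Every library, controls included, also received dexamethasone, which sets the molecular clock, and circadian time (CT) counts the hours from dexamethasone. RNA was collected every 4 h from CT24. SHEP MYC-OFF and SHEP MYC-ON had 28 libraries each, 2 replicate series of 14 time points to CT76. SKNAS MYC-OFF had 14 libraries and SKNAS MYC-ON had 13, a single series per condition that ended at CT72 in MYC-ON. Each line stands for 1 genetic background.

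The p53 protein is a transcription factor that is stabilized by DNA damage and other stress and then switches on genes for cell cycle arrest, DNA repair, metabolism and cell death. MDM2 is the ubiquitin ligase that marks p53 for degradation and is itself a p53 target, which closes a negative feedback loop, and its relative MDM4 mainly masks the activation domain of p53. Excess MYC is known to engage p53 in several cell types. The other genes are established p53 targets with separate jobs: GDF15 is a secreted stress cytokine, BTG2 an antiproliferative adaptor of mRNA deadenylation, SESN1 an inhibitor of mTORC1 signaling, FDXR a mitochondrial electron donor for steroid and iron-sulfur chemistry, TP53I3 a quinone oxidoreductase, RRM2B a ribonucleotide reductase subunit that supplies nucleotides outside S phase, and ZMAT3 an RNA-binding splicing regulator.

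Stretches near the start sites that resemble the p53 response element are shown first, since the genes were chosen as p53 targets. A window of 300 bases around each start site, 250 before and 50 after it, was held by RefSeq on GRCh38.p14 for 8 of the 9 genes, and the p53 response element consensus, a pair of adjoining 10-base repeats without a spacer, was searched on both strands with at most 3 mismatches and with the core C and G of each repeat kept. The consensus reads the same on both strands. Matches lay in the windows of 4 of the 8 genes and of 1.37% of all 27305 genes with a window. The limit of 3 mismatches was set after the matches of these genes had been seen. Capitals mark the 20 bases of the match.
MDM2, chr12:68808893-68808972, + strand: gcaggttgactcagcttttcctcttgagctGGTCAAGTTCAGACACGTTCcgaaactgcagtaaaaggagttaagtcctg
SESN1, chr6:109009013-109009042, - strand: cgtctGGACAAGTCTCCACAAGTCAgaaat
FDXR, chr17:74872991-74873020, - strand: ggcccGGGCAGGAGCGGGCTTGCCCtgcgg
GDF15, chr19:18386181-18386207, + strand: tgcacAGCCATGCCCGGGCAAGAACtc
The MDM2 match had 2 mismatches and began 94 bases before an internal start site, at the promoter known as P2, inside an intron of 6 of the 36 MDM2 transcripts in Gencode 44 and in no exon. The SESN1 match had 3 mismatches, began 49 bases before a start site and lay in an intron of 2 of 7 transcripts. The FDXR match, with 3 mismatches, began 21 bases before the start site and lay in an exon of 4 of 20 transcripts. The GDF15 match, also with 3 mismatches, began 29 bases after the start site, in an exon, as untranslated sequence, of 3 of 5 transcripts. The E-box CACGTG, the letters MYC proteins bind best, was in the windows of 0 of the 8 genes and of 8.77% of all genes with a window. A match is a description of letters, and binding was not measured here.

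Values are TPM, a share of all transcripts in a library, which are divided by gene length, so levels of different genes can be set side by side. Each library sums to the same total, which leaves the depth of a library unknown, and no counting error can be given. The median of log2(TPM + 1) over the tested genes was narrow in SHEP, from 3.93 to 4.17 in MYC-OFF and from 3.93 to 4.12 in MYC-ON. In SKNAS it ran from 2.97 to 4.38 in MYC-OFF and from 2.76 to 4.25 in MYC-ON, and 4 of 14 MYC-OFF but 10 of 13 MYC-ON libraries were below 3.8. SKNAS results are therefore also given without those libraries. The median of MYCN in SHEP was 559.9 TPM without and 353 TPM with activation, and in SKNAS it was 612 and 309 TPM. Among the adrenergic neuroblastoma markers, TH and DBH had a mean under 1 TPM in all groups, and the summed mesenchymal markers spanned 3281 to 5311 TPM in SHEP libraries and 673 to 2630 TPM in SKNAS libraries.

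**Figure D1:**
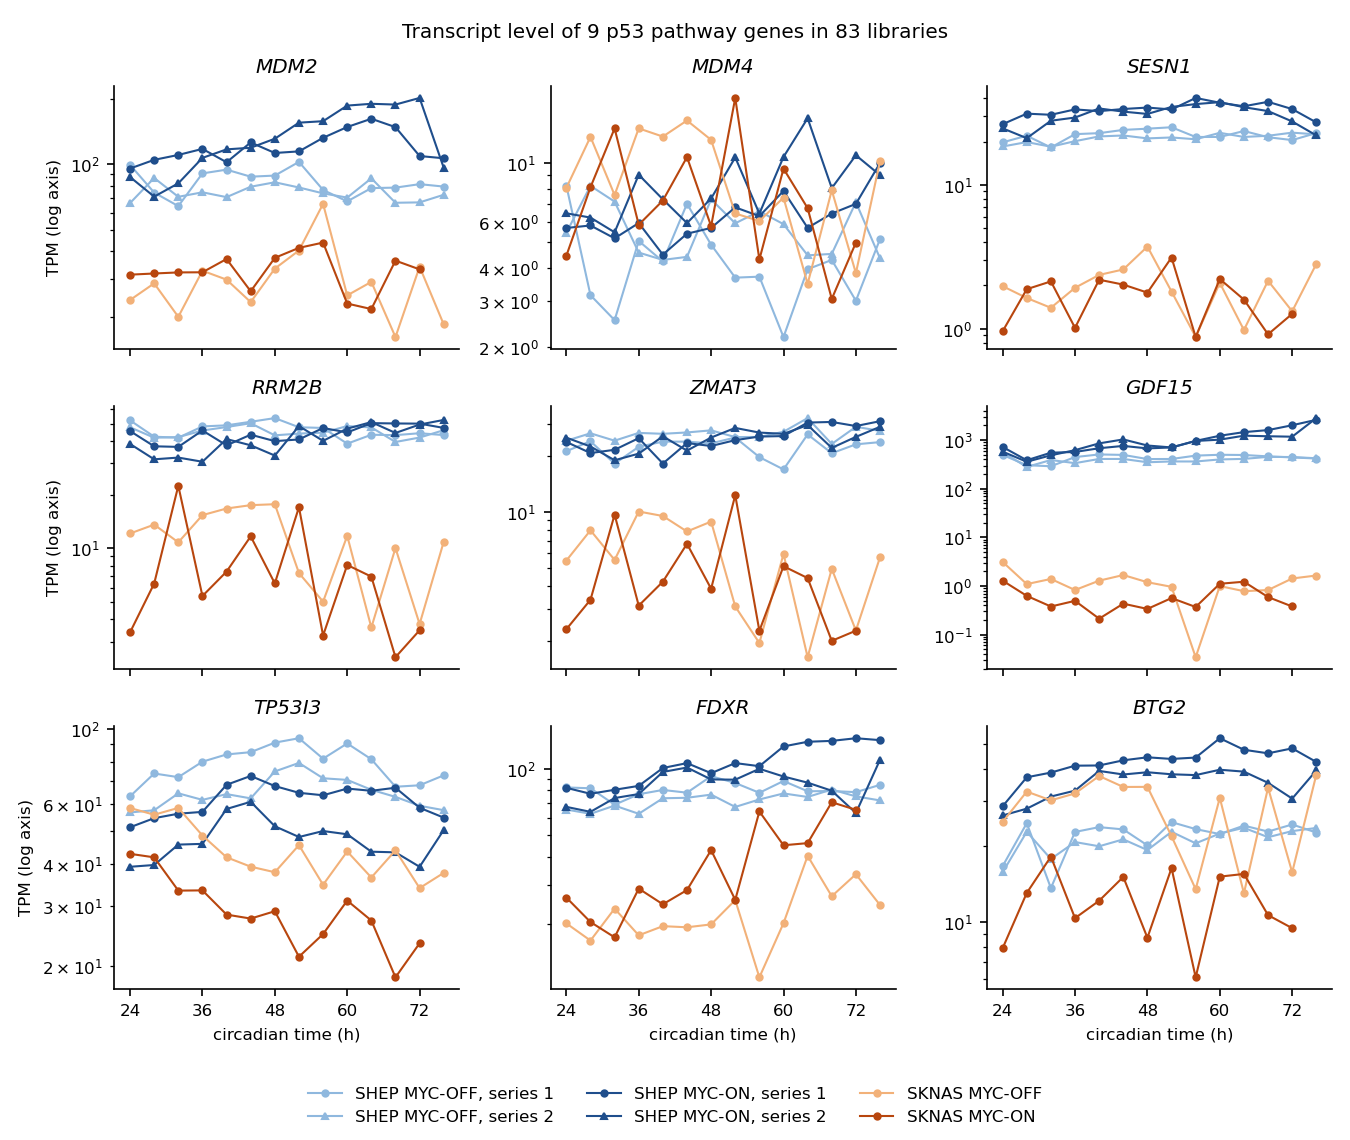
TPM (log axis) of each of the 9 genes against circadian time in hours, with 1 point per library and lines joining the points of a series. SHEP MYC-ON lies above SHEP MYC-OFF for GDF15 and BTG2, and SKNAS lies far below SHEP for GDF15, SESN1, RRM2B and ZMAT3.

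The first comparison asked how activated N-MYC changed these genes in SHEP. Of the 9, 6 rose (GDF15, BTG2, MDM2, SESN1, MDM4 and FDXR), TP53I3 fell, and RRM2B and ZMAT3 did not pass the test. A gene was called when its p, adjusted by Benjamini and Hochberg over all genes tested, did not exceed 0.05 and its log2 change reached 0.15 in size, by limma on log2(TPM + 1) with CT as a factor. With this rule, 71.8% of 14362 genes were called, 33.0% up and 38.9% down. The 7 of 9 called is near the share of all genes, while 6 of 9 up is above it. As the 9 genes were chosen with earlier results of these data known, that excess is no test. The median change of the 9 genes was 0.47 and that of all genes -0.04. In bulk RNA, fewer cells of a kind and less RNA per cell cannot be told apart.

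GDF15 (ENSG00000130513; chromosome 19, 18374731 to 18389176, + strand) showed the largest rise of the 9. Its level in SHEP MYC-OFF was 281 TPM at the lowest, 414 at the median and 562 at the highest. In SHEP MYC-ON it was 359, 815 and 2833 TPM. The ranges overlapped, yet 24 of 28 MYC-ON libraries were above every MYC-OFF library, and MYC-ON was higher in 28 of 28 pairs of the same series and CT. The mean rose 2.45-fold, and the log2 change was 1.11 (SE 0.10, limma adjusted p = 3.50e-13). GDF15 stood at the 97.5 percentile of all changes tested.

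BTG2 (ENSG00000159388; chromosome 1, 203305491 to 203309602, + strand) was the only one of the 9 whose MYC-OFF and MYC-ON libraries did not overlap in SHEP, which 6.11% of all genes also did with MYC-ON higher. It had a lowest value of 13.6, a median of 22.6 and a highest value of 24.7 TPM in MYC-OFF. In MYC-ON these were 26.3, 39.1 and 52.8 TPM. The log2 change was 0.83 (SE 0.05, limma adjusted p = 4.75e-21), higher in 28 of 28 pairs.

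Both restrainers of p53 rose in SHEP. MDM2 (ENSG00000135679; chromosome 12, 68808177 to 68845544, + strand) went from 64.4, 78.1 and 103 TPM (lowest, median and highest) in MYC-OFF to 71.2, 117 and 201 TPM in MYC-ON. MYC-ON was higher in 26 of 28 pairs, and 22 MYC-ON libraries exceeded every MYC-OFF library. The log2 change of MDM2 was 0.65 (SE 0.07, limma adjusted p = 8.36e-11). MDM4 (ENSG00000198625; chromosome 1, 204516379 to 204558120, + strand) was much less abundant, at 2.19, 4.55 and 8.23 TPM in MYC-OFF and 4.50, 6.45 and 14.8 TPM in MYC-ON. Its ranges overlapped widely, with MYC-ON higher in 23 of 28 pairs. The log2 change of MDM4 was 0.47 (SE 0.11, limma adjusted p = 9.38e-05), and from CT24 to CT48 alone it was 0.18 and not called (limma adjusted p = 0.201).

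SESN1 and FDXR, which act in nutrient signaling and mitochondrial redox chemistry, rose in SHEP. SESN1 (ENSG00000080546; chromosome 6, 108984309 to 109094846, - strand) was at 18.2, 21.6 and 25.2 TPM (lowest, median and highest) in MYC-OFF and at 21.1, 33.0 and 40.2 TPM in MYC-ON. All but 3 of the 28 MYC-ON libraries were above the MYC-OFF range, and the log2 change was 0.53 (SE 0.04, limma adjusted p = 2.13e-16). FDXR (ENSG00000161513; chromosome 17, 74862497 to 74873031, - strand) was at 62.6, 76.95 and 92.4 TPM in MYC-OFF and at 63.1, 93.7 and 137 TPM in MYC-ON. Its lowest libraries of both conditions lay at about the same level, and the log2 change was 0.30 (SE 0.06, limma adjusted p = 1.77e-05), higher in 24 of 28 pairs.

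TP53I3 (ENSG00000115129; chromosome 2, 24077433 to 24085861, - strand) was the gene that fell. It was at 56.7, 71.0 and 93.7 TPM (lowest, median and highest) in SHEP MYC-OFF and at 39.2, 54.6 and 72.6 TPM in SHEP MYC-ON. The ranges overlapped, series 2 had the lower mean in both conditions, and MYC-ON was lower in 28 of 28 pairs. The log2 change was -0.39 (SE 0.06, limma adjusted p = 5.22e-08).

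RRM2B and ZMAT3 did not pass the test over the whole course. RRM2B (ENSG00000048392; chromosome 8, 102204502 to 102238961, - strand) was at 38.6, 45.1 and 53.6 TPM (lowest, median and highest) in SHEP MYC-OFF and at 30.5, 43.8 and 52.4 TPM in MYC-ON. Its log2 change of -0.10 (SE 0.05, limma adjusted p = 0.0364) was under the size required. ZMAT3 (ENSG00000172667; chromosome 3, 178960121 to 179072215, - strand) was at 17.0, 24.2 and 32.1 TPM in MYC-OFF and at 18.3, 25.2 and 30.9 TPM in MYC-ON, for which the log2 change was 0.03 (SE 0.05, limma adjusted p = 0.611). Early and late libraries gave values of opposite sign for both genes. From CT24 to CT48 RRM2B was lower in MYC-ON, with a log2 change of -0.30 (limma adjusted p = 1.52e-05), and from CT52 the value was 0.10 and not called (limma adjusted p = 0.0786). ZMAT3 had -0.10 in the early libraries (limma adjusted p = 0.103) and rose by 0.16 in the late ones (limma adjusted p = 0.0383).

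The libraries of a series were collected from a single experiment, and every time point was counted as a replicate. With CT as a factor, the p-values measure the spread left among libraries of the same CT. With the means of the 2 series as replicates, 4 of the 9 genes were called (GDF15, BTG2, MDM2 and SESN1), all of them up. In that setting 52.5% of all genes were called, 24% up and 28.5% down. The limma adjusted p was 0.0596 for MDM4, 0.0889 for TP53I3 and 0.110 for FDXR.

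**Figure D2:**
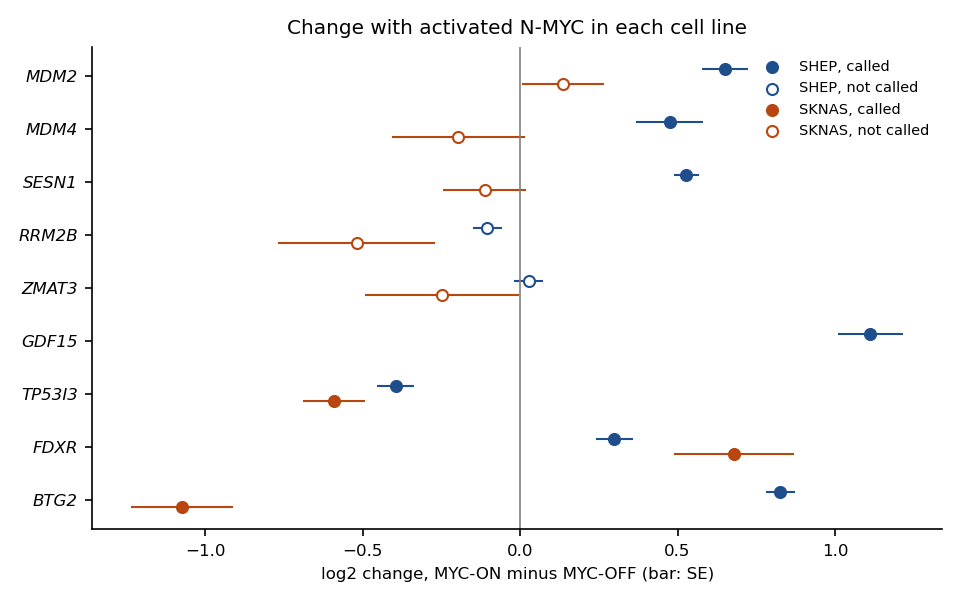
Log2 change of TPM + 1 with activated N-MYC for each of the 9 genes in SHEP and SKNAS, with the SE as a bar. Filled points were called and open points were not, and GDF15 has no SKNAS point because it was below the filter there. BTG2 was at 0.83 in SHEP and at -1.07 in SKNAS.

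In SKNAS the same question gave another picture. BTG2 and TP53I3 fell, FDXR rose, and MDM2, MDM4, SESN1, RRM2B and ZMAT3 did not pass the test. GDF15 had a mean below 1 TPM over all SKNAS libraries and was not tested. Among 13886 genes tested, 48.1% were called, 13.7% up and 34.4% down, so 3 of 8 called genes is not above the share of all genes. The split of all genes turned with the scaling, to 27.6% up and 23.9% down after median-of-ratios rescaling (1 up and 1 down of the 8) and to 28.3% up and 26.1% down with the library median as covariate (3 up and 2 down of the 8). For 0 of the 8 were the libraries of the conditions apart, as they were for 4.41% of all genes. The median change of all genes was -0.29, and the median of the 8 genes was -0.22. The rescaling sets the median change of all genes to 0.03, and both settings were run beside each call.

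BTG2 in SKNAS was at 13.01, 31.4 and 37.98 TPM (lowest, median and highest) in MYC-OFF and at 6.09, 12.2 and 18.1 TPM in MYC-ON. In all, 7 MYC-ON libraries were below every MYC-OFF library, and MYC-ON was lower in 12 of 13 pairs of the same CT. The log2 change was -1.07 (SE 0.16, limma adjusted p = 7.15e-05). TP53I3 was at 34.0, 42.7 and 58.4 TPM in MYC-OFF and at 18.5, 28.4 and 42.8 TPM in MYC-ON, lower in 13 of 13 pairs, with 11 MYC-ON libraries below the MYC-OFF range. Its log2 change was -0.59 (SE 0.10, limma adjusted p = 0.000204), and after rescaling it was -0.23 and no longer called (limma adjusted p = 0.246).

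FDXR was the 1 gene of the 9 that rose in both lines. In SKNAS it was at 11.5, 20.1 and 40.5 TPM (lowest, median and highest) in MYC-OFF and at 17.4, 28.8 and 70.5 TPM in MYC-ON. MYC-ON was higher in 12 of 13 pairs, with 6 MYC-ON libraries above the MYC-OFF range, and the log2 change was 0.68 (SE 0.19, limma adjusted p = 0.00899). GDF15 was low in SKNAS, at 0.0343, 1.14 and 3.13 TPM in MYC-OFF and at 0.213, 0.495 and 1.29 TPM in MYC-ON. Without the filter on low values its log2 change in SKNAS was -0.41 (limma adjusted p = 0.0306).

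MDM2 in SKNAS was at 16.2, 28.8 and 66.0 TPM (lowest, median and highest) in MYC-OFF and at 21.8, 32.1 and 43.9 TPM in MYC-ON. No MYC-ON library lay outside the MYC-OFF range, and the log2 change was 0.14 (SE 0.13, limma adjusted p = 0.396). The log2 changes were -0.20 for MDM4, -0.11 for SESN1, -0.52 for RRM2B and -0.25 for ZMAT3, with limma adjusted p from 0.0956 for RRM2B to 0.494 for SESN1. In SKNAS MYC-ON, RRM2B, MDM4 and ZMAT3 followed the library median closely, with Pearson's r of 0.98, 0.97 and 0.95 over 13 libraries, SESN1 followed it at 0.88 and BTG2 at 0.84. FDXR went the other way at -0.71. These are descriptions of libraries that share 1 culture series. With the library median as a covariate, MDM4 was at 0.29 (limma adjusted p = 0.0380) and ZMAT3 at 0.34 (limma adjusted p = 0.0126), both of the opposite sign. In the 13 SKNAS libraries with a median of at least 3.8, of which 3 were MYC-ON, none of the 8 genes and 69 of all genes were called, and the log2 change was -0.91 for BTG2, -0.64 for TP53I3 and 0.06 for FDXR. Both conditions kept a library only at CT32 and CT44, so with CT as a factor the change rests on those CTs. A lost call there cannot be read as a missing change. The calls also differed between time windows, which differ in library median too. The MYC-OFF libraries with a median below 3.8 all lay at CT52 or later, and those of MYC-ON lay in both windows. Time window and library median cannot be told apart here. From CT24 to CT48, 5 genes were lower and called (BTG2, TP53I3, MDM4, RRM2B and ZMAT3). In that window 65.7% of all genes were called and 51% were lower, with a median change of -0.47. From CT52 on none of the 8 was called, where 8.63% of all genes were, with BTG2 at -0.74 (limma adjusted p = 0.136). FDXR was at 0.40 early (limma adjusted p = 0.0577) and at 1.00 late (limma adjusted p = 0.0987). Blood, endothelial and epithelial markers were measured beside these changes. Of 5, only PTPRC, the leukocyte phosphatase CD45, reached a mean of 1 TPM in SKNAS MYC-OFF, PTPRC and EPCAM did in SKNAS MYC-ON, and the summed level of the 5 ran from 13.3 to 133 TPM in SKNAS MYC-OFF, from 3.54 to 63.2 TPM in SKNAS MYC-ON and up to 1.04 TPM in SHEP. PECAM1, CDH5 and CD3E had a mean under 1 TPM in all 4 groups. Their part in the result was not tested.

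Whether the N-MYC effect differed between lines was tested directly as an interaction over all 83 libraries. Of the 8 genes that passed the filter on low values in both lines, 6 differed, where 51.6% of 15942 genes did. BTG2, SESN1, MDM4, MDM2 and RRM2B had a lower change in SKNAS (38.0% of all genes) and FDXR a higher one (13.5% of all genes). After rescaling 3 of the 8 were lower and 1 higher, where 25.1% of all genes were lower and 25.1% higher, and with the library median as covariate it was also 3 and 1, beside 22.1% and 24.8%. The difference, SKNAS minus SHEP, was -1.90 for BTG2 (SE 0.12, limma adjusted p = 6.14e-21) and -0.64 for SESN1 (SE 0.10, limma adjusted p = 9.92e-08). These calls held under each alternative that was run for this test, and for BTG2 the changes had opposite signs in the lines. GDF15 entered the test through SHEP alone, where it is high, and is left out of the counts. Its value of -1.53 (SE 0.18, limma adjusted p = 2.31e-10) sets the rise in SHEP against levels near 1 TPM in SKNAS, where log2(TPM + 1) compresses any change.

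The other differences depended on the setting. MDM4 was at -0.67, MDM2 at -0.51, RRM2B at -0.41 and FDXR at 0.38, with limma adjusted p from 0.00138 for MDM2 to 0.0336 for RRM2B. With only the SKNAS libraries of higher median the 4 values were -0.31, -0.25, 0.33 and -0.24, none of them called (limma adjusted p from 0.340 to 0.715). The SKNAS change in that setting rests on CT32 and CT44 alone. TP53I3 at -0.20 (limma adjusted p = 0.103) and ZMAT3 at -0.27 (limma adjusted p = 0.158) did not pass. With the replicate block TP53I3 had the value -0.20 and was called (limma adjusted p = 0.0132), and without SHEP series 2 it was at -0.25 and called (limma adjusted p = 0.0409). Without series 2 MDM2 was at -0.39 and not called (limma adjusted p = 0.0507), and in either series alone RRM2B and FDXR were not called.

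**Figure D3:**
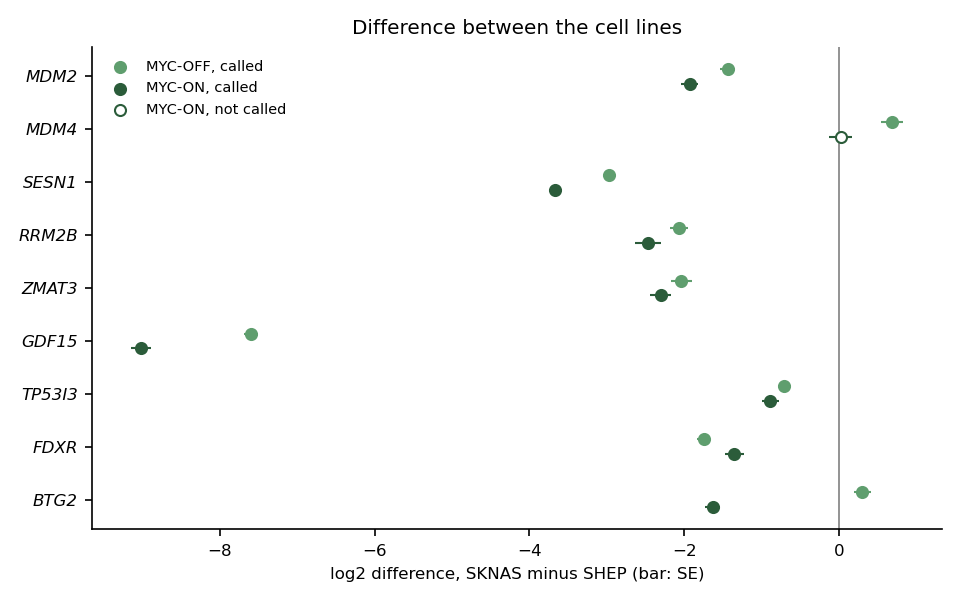
Log2 difference of TPM + 1, SKNAS minus SHEP, for each of the 9 genes, without and with activated N-MYC, with the SE as a bar. GDF15 is at -7.60 and -9.02, and MDM4 is at 0.69 in MYC-OFF and at 0.02, not called, in MYC-ON.

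The next comparison set the lines side by side within a condition. In MYC-OFF, 6 of the 8 genes that passed the filter in both lines were lower in SKNAS (SESN1, RRM2B, ZMAT3, FDXR, MDM2 and TP53I3) and MDM4 and BTG2 were higher. All 8 were called, where 79.1% of 15942 genes were, and 6 of 8 lower stands beside 45.6% of all genes and 2 of 8 higher beside 33.5%. With the library median as covariate the counts of the 8 were again 6 and 2, and all genes split into 38.5% lower and 43.6% higher. The shares of all genes include those that passed the filter through 1 line. The median difference was -1.59 for the 8 genes and -0.16 for all genes. Line, culture and library batch cannot be told apart in this comparison. Ranges did not overlap for 4 of the 8 (SESN1, RRM2B, ZMAT3 and FDXR), all lower in SKNAS, against 30.7% of all genes in either direction and 20.4% lower.

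GDF15 had the widest gap. The median was 414 TPM in SHEP MYC-OFF against 1.14 TPM in SKNAS MYC-OFF, and the mean was 340.0-fold higher in SHEP. Its log2 difference was -7.60 (SE 0.09, limma adjusted p = 8.23e-35), at the 0.0878 percentile of all genes tested. GDF15 passed the filter through SHEP alone, so that a lower value in SKNAS was fixed by the filter, and its ranges did not overlap in either condition. In MYC-ON the gap widened to -9.02 (SE 0.13, limma adjusted p = 2.78e-32).

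SESN1 was at 0.876, 1.95 and 3.72 TPM (lowest, median and highest) in SKNAS MYC-OFF and at 0.874, 1.78 and 3.12 TPM in SKNAS MYC-ON. Every one of these libraries was far below the SHEP range, and the mean was 10.98-fold higher in SHEP MYC-OFF. The log2 difference of SESN1 was -2.97 in MYC-OFF (SE 0.07, limma adjusted p = 6.53e-27) and -3.67 in MYC-ON. RRM2B was at 3.599, 11.3 and 17.7 TPM in SKNAS MYC-OFF and at 2.45, 6.36 and 22.4 TPM in SKNAS MYC-ON, and ZMAT3 at 1.65, 5.60 and 10.1 TPM and at 2.02, 3.85 and 12.3 TPM. Neither gene overlapped with SHEP in either condition. Their log2 differences in MYC-OFF were -2.07 for RRM2B (SE 0.12, limma adjusted p = 4.06e-16) and -2.04 for ZMAT3 (SE 0.14, limma adjusted p = 1.09e-14).

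FDXR, MDM2 and TP53I3 differed less. The log2 differences in MYC-OFF were -1.75 for FDXR (SE 0.09), -1.44 for MDM2 (SE 0.10) and -0.70 for TP53I3 (SE 0.08), with limma adjusted p of 2.99e-18, 1.05e-14 and 3.29e-09. For MDM2, 13 of 14 SKNAS libraries were below the SHEP range, and the library at CT56 lay inside it at 66.0 TPM. MDM4 was higher in SKNAS MYC-OFF, at 3.48, 7.97 and 14.5 TPM (lowest, median and highest), with a log2 difference of 0.69 (SE 0.15, limma adjusted p = 0.000106). From CT52 on alone it was 0.38 and not called (limma adjusted p = 0.0781). BTG2 was higher by 0.30 (SE 0.11, limma adjusted p = 0.0129), a call that was lost without SHEP series 1 (0.33, limma adjusted p = 0.0529) and without series 2 (0.27, limma adjusted p = 0.126).

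In MYC-ON, 7 of the 8 genes that passed in both lines were lower in SKNAS, where 84.5% of all genes were called, 56.3% lower and 28.2% higher. After rescaling 7 of the 8 were lower and MDM4 higher, and all genes split nearly evenly, with 43.4% lower and 41.7% higher. With the library median as covariate the 8 gave the same counts beside 34.0% lower and 38.6% higher. Ranges did not overlap for 5 of the 8 (MDM2, SESN1, RRM2B, ZMAT3 and BTG2), all lower in SKNAS, against 18.8% of all genes. BTG2 had turned from 0.30 to -1.63 (SE 0.10, limma adjusted p = 7.54e-16), with the rise in SHEP and the fall in SKNAS given above. MDM2 stood at -1.93, with a median of 117 TPM in SHEP against 32.1 TPM in SKNAS. MDM4 no longer differed detectably at 0.02 (SE 0.15, limma adjusted p = 0.884), but with the library median as covariate it was higher in SKNAS by 0.89 (limma adjusted p = 1.80e-05), after rescaling by 0.46 and with the SKNAS libraries of higher median by 0.99. MYC-OFF and MYC-ON comparisons use separate libraries of the same series.

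**Figure D4:**
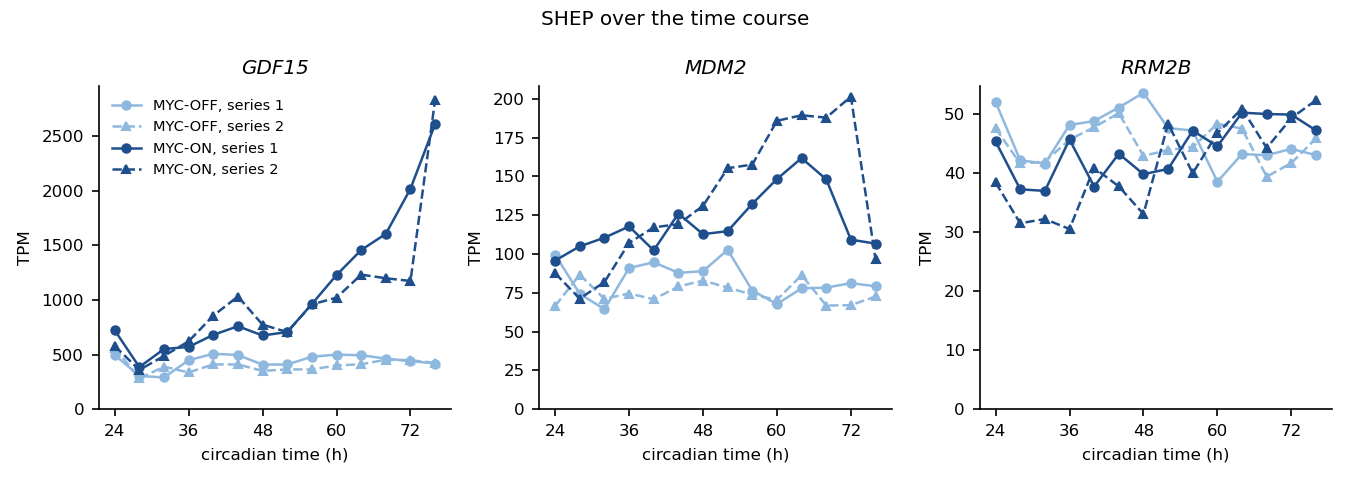
TPM of GDF15, MDM2 and RRM2B in SHEP against circadian time in hours, with series 1 as solid lines and series 2 as dashed lines. GDF15 in MYC-ON ends at 2612 and 2833 TPM at CT76, and MDM2 in MYC-ON of series 2 climbs to 201 TPM at CT72 and is at 96.5 TPM at CT76.

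The time course was then asked whether the genes drifted. A linear slope per day was fitted to log2(TPM + 1) in each group with an intercept for each condition and series. In SHEP MYC-OFF only BTG2 had a slope (0.16 per day, SE 0.05, limma adjusted p = 0.0149), where 11.7% of genes were called, and neither series alone called it. In SHEP MYC-ON 7 of the 9 genes rose with time, and 60.2% of all genes were called, with 21.3% of all genes rising. The slopes were 0.97 for GDF15, 0.34 for MDM2, 0.29 for MDM4, 0.27 for FDXR, 0.23 for RRM2B, 0.20 for ZMAT3 and 0.19 for BTG2, with limma adjusted p from 6.49e-15 for GDF15 to 0.00277 for MDM4. GDF15 stood at the 99.8 percentile of all slopes. In 1 series alone the call was lost for MDM2 (0.16, limma adjusted p = 0.0764) and MDM4 (0.24) without series 2, and for FDXR (0.14, limma adjusted p = 0.104) without series 1.

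GDF15 in SHEP MYC-ON was at 359 to 1032 TPM from CT24 to CT48 and at 706 to 2833 TPM from CT52. In MYC-OFF the same windows spanned 281 to 562 TPM and 363 to 499 TPM. Series 1 climbed from 706 TPM at CT52 through 2019 TPM at CT72 to 2612 TPM at CT76. Series 2 went from 706 TPM at CT52 to 1232 TPM at CT64 and was at 1199 and 1174 TPM at CT68 and CT72. It reached 2833 TPM in the single library at CT76, beside the 2612 TPM of series 1. MDM2 in MYC-ON averaged 106 ± 17.1 TPM (SD, n = 14) early and 150 ± 34.1 TPM (SD, n = 14) late, against 80.9 ± 10.9 and 77.04 ± 9.36 TPM in MYC-OFF. SESN1 in MYC-ON rose and then came down, from 26.4 and 24.7 TPM at CT24 to 37.3 and 37.6 TPM at CT60 and 27.2 and 22.1 TPM at CT76. Its slope was 0.09 and not called (limma adjusted p = 0.0901), and without CT76 it was 0.19 (limma adjusted p = 8.19e-05). Without the series 2 library at CT76 alone it was 0.14 (limma adjusted p = 0.00342).

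The slope itself differed between conditions for 6 of the 9 genes in SHEP, all higher in MYC-ON, where 43.4% of genes differed and 16.1% had the higher slope in MYC-ON. The difference was 0.87 for GDF15 (SE 0.12), 0.41 for MDM4 (SE 0.12), 0.39 for MDM2 (SE 0.10), 0.28 for RRM2B (SE 0.05), 0.20 for FDXR (SE 0.06) and 0.16 for ZMAT3 (SE 0.06), with limma adjusted p from 1.79e-08 for GDF15 to 0.0277 for ZMAT3. RRM2B and GDF15 kept the call in each series alone. MDM2 and MDM4 lost it without series 2 (0.23 and 0.39, limma adjusted p = 0.120 and 0.0986), FDXR without series 1 (0.03, limma adjusted p = 0.862) and ZMAT3 without either, and without CT76 (0.15, limma adjusted p = 0.0701). The SHEP MYC-ON library of series 2 at CT76 departed from its own series. MDM2 fell from 201 TPM at CT72 to 96.5 TPM, while GDF15 rose from 1174 to 2833 TPM. Series 1 was at similar levels at CT76, with MDM2 at 107 TPM and GDF15 at 2612 TPM. Without the series 2 library at CT76 the MYC-ON slope was 0.42 for MDM2 and 0.90 for GDF15.

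In SKNAS slopes were called for few genes, 0.151% in MYC-OFF and 0.166% in MYC-ON. At an unadjusted limma p under 0.05 the counts were 4929 and 1011 of 13886 genes, with median slopes of -0.31 and -0.20 per day. Without CT76, an alternative chosen after seeing the data, 4849 genes were called in MYC-OFF, so few calls do not mean little drift. Of the 8 genes only FDXR passed with all libraries. It rose by 0.87 per day in MYC-ON (SE 0.17, limma adjusted p = 0.0155), from 26.3 TPM at CT24 to 65.2 TPM at CT72, and after rescaling it was not called (limma adjusted p = 0.0998). In the libraries with a median of at least 3.8 it was 0.70 and not called (limma adjusted p = 0.551). The MYC-ON and MYC-OFF slopes of FDXR did not differ detectably (0.58, SE 0.22, limma adjusted p = 0.999), and none of the 8 did, where 0.0792% of genes differed.

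The study asked about rhythms of 24 h, and none of these genes passed the test used here. The paper used another method, ECHO, which fits the period and allows damping, and reported far more oscillating genes in each line. A gene without a call at a fixed 24 h may therefore still have a rhythm. By a limma F test of cosine and sine terms, 0 of 9 genes were called in SHEP MYC-OFF (0.0627% of genes) and 0 of 9 in SHEP MYC-ON (0.0139%). In SKNAS 0 of 8 were called in both conditions, with 0 calls among all genes. At an unadjusted p under 0.05 the counts over all genes were 1413 (MYC-OFF) and 1254 (MYC-ON) in SHEP and 60 (MYC-OFF) and 46 (MYC-ON) in SKNAS. The SKNAS counts are below the share that a p under 0.05 gives without any rhythm, so a call there was unlikely. The lowest p of the 9 genes in SHEP MYC-OFF was that of GDF15 (0.0186, limma adjusted p = 0.415), and in SHEP MYC-ON that of SESN1 (0.0126, limma adjusted p = 0.502).

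How the genes varied among themselves was read over the 56 SHEP libraries after the mean of each condition had been removed. Of 36 pairs 31 had a positive Pearson's r, with a median of 0.34. The highest values were 0.69 for FDXR with BTG2, SESN1 with BTG2 and TP53I3 with FDXR, and the lowest was -0.42 for MDM4 with TP53I3. The 5 genes closest to MDM2 by the same measure were AC025423.2 (0.88), ME1 (0.79), PABPC1 (0.79), AC119751.3 (0.77) and UFL1 (0.77). The drift with time and the difference between series were not removed, and the share over all gene pairs was not measured. The points share libraries and time points, so these values are descriptions.

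**Figure D5:**
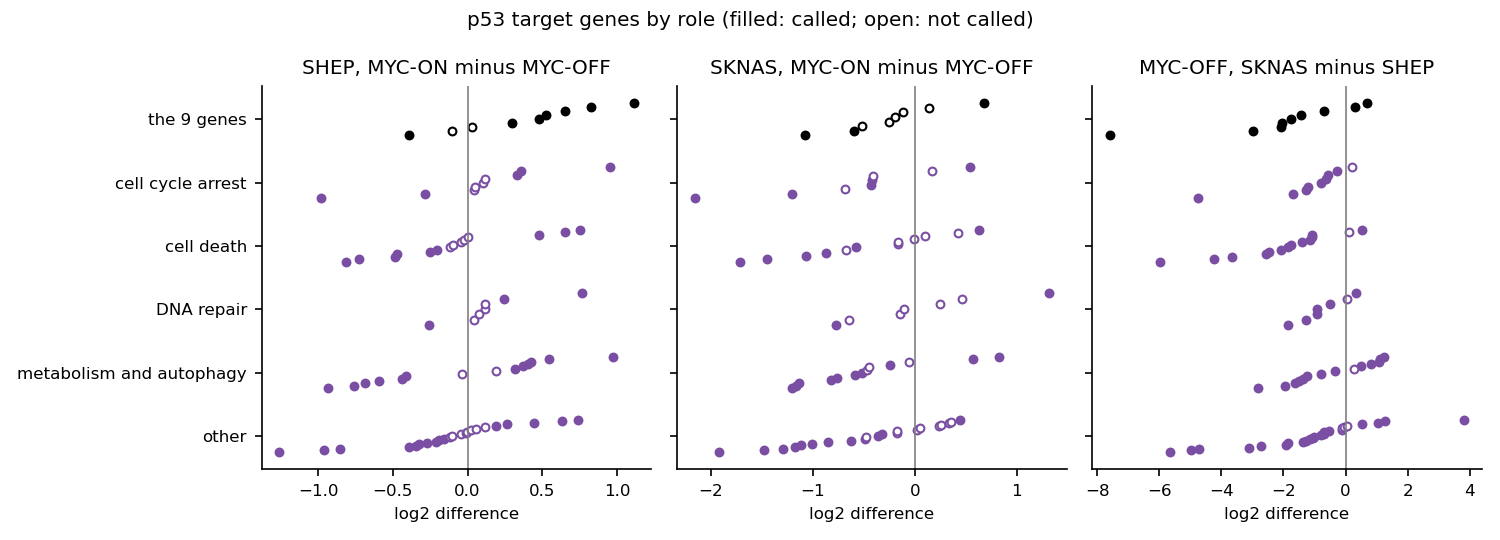
Log2 difference of each p53 target gene by role, with 1 point per gene, in SHEP and SKNAS with activated N-MYC and between the lines in MYC-OFF. Filled points were called. In the line comparison most targets of every role lie below 0, with CDKN1A at -4.76 and PERP, which passed the filter through SHEP alone, at -5.97.

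To see the 9 genes within the pathway, 72 other p53 targets in 5 lists by role were read in the same fits. In SHEP, 19 of 67 tested were higher and 25 lower in MYC-ON, with a median change of -0.01 against -0.04 for all genes. Beside 33.0% of all genes up and 38.9% down, neither count is above the share of all genes. CDKN1A (p21), the cyclin-dependent kinase inhibitor that is the main arrest gene of p53, was at a median of 676 TPM in MYC-OFF and 682 TPM in MYC-ON, for a log2 change of 0.05 (limma adjusted p = 0.470) that was 0.18 and called without series 2 (limma adjusted p = 0.0460) and -0.08 without series 1. Among arrest genes PLK3 rose by 0.95, CCNG1 by 0.36 and GADD45A by 0.33, and SFN fell by 0.98 (3 higher and 2 lower of 9). Among cell death genes AEN rose by 0.75, the BH3 protein gene BBC3 (PUMA) by 0.65 and PIDD1 by 0.48, while PERP fell by 0.82, APAF1 by 0.72 and FAS by 0.49 (3 higher and 6 lower of 14). The repair genes had 2 higher, led by TRIAP1 at 0.77, and XPC lower at -0.26 of 7. Metabolism and autophagy split 6 to 6 of 14, from GLS2 at 0.97 to ULK1 at -0.94, and the remaining list had 5 higher, led by NINJ1 at 0.74, and 10 lower, led by TRIM22 at -1.26, of 23. Limma adjusted p for the genes named was at most 4.96e-05 apart from CDKN1A.

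In SKNAS 6 of 61 tested targets were higher and 29 lower, beside 13.7% of all genes up and 34.4% down, with a median of -0.43 against -0.29 for all genes. After rescaling 15 were higher and 17 lower, beside 27.6% and 23.9%. With the library median as covariate 14 were higher and 26 lower, beside 28.3% and 26.1%. CDKN1A fell from a median of 27.0 to 5.37 TPM, with the log2 change at -2.16 (SE 0.20, limma adjusted p = 6.80e-07). It was also the only gene of all the lists called in the SKNAS libraries of higher median (-2.24, limma adjusted p = 0.0499), a fit resting on CT32 and CT44. TP53INP1 was at -1.71, PHLDA3 at -1.45 and PLK2 at -1.20, and TRIAP1 rose by 1.32, SCO2 by 0.83 and BAX by 0.63.

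Between the lines in MYC-OFF, 42 of the 60 targets that passed the filter in both lines were lower in SKNAS and 10 higher, beside 45.6% and 33.5% of all genes, with a median of -0.92 against -0.16 for all genes. With the library median as covariate it was 41 lower and 14 higher, beside 38.5% and 43.6% of all genes, and with the SKNAS libraries of higher median 40 and 14. By role, 7 of 8 arrest genes, 10 of 12 cell death genes, 5 of 7 repair genes, 7 of 13 metabolism genes and 13 of 20 of the rest were lower. Of the metabolism genes 5 were higher. They split 6 to 6 with the library median as covariate and with the SKNAS libraries of higher median. Another 7 targets passed through SHEP alone and 1 through SKNAS alone, and the direction of these was fixed by the filter. CDKN1A was at -4.76 (SE 0.14, limma adjusted p = 4.35e-24), LIF at -4.71 and PHLDA3 at -4.23. Of those that passed through SHEP alone, PERP was at -5.97, CMBL at -5.67 and TRIM22 at -4.97. EDA2R, a death receptor gene at a median of 11.7 TPM in SHEP MYC-OFF, was listed at 0 in all SKNAS libraries. TP53I11, which passed through SKNAS alone, was higher there at 3.83, as were CDIP1 at 1.26, SAT1 at 1.25 and PCNA, the replication clamp, at 0.34. The limma adjusted p for these genes was at most 1.41e-06.

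The genes that control p53 were read as a list of 23. Of the list 5 were higher and 7 lower of 21 in SHEP, no more than the 33.0% and 38.9% of all genes. In SKNAS 4 were higher and 3 lower of 21, beside 13.7% and 34.4%. CHEK2, the DNA damage kinase that phosphorylates p53, rose by 1.97 in SHEP and by 1.27 in SKNAS. NPM1, a gene with many near-identical pseudogenes among which reads can be split, rose by 1.55 and 1.13. Among the lower genes, TP73 was at -1.03 and CREBBP at -0.62 in SHEP, and PPM1D at -1.48 and TP53BP1 at -0.50 in SKNAS. CDKN2A, the locus of p16 and of the MDM2 inhibitor ARF, was at a median of 404 TPM in SKNAS MYC-OFF and was listed at 0 in 24 of 28 SHEP MYC-OFF libraries, with a highest value of 0.404 TPM.

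Lists outside the p53 response were read beside it. Of 17 cell cycle genes that p53 lowers through p21 and the DREAM complex, 5 were higher and 5 lower in SHEP MYC-ON over the whole course, beside 33.0% and 38.9% of all genes. With time they fell in SHEP MYC-ON, where 15 of 17 had a lower slope and 0 a higher one (38.9% and 21.3% of all genes), with a median slope of -0.43 per day against -0.05 for all genes. The slope was lower than in MYC-OFF for 16 of 17 (27.3% of all genes), with a median difference of -0.55. Of the 9 arrest targets 6 had a higher slope in SHEP MYC-ON and 0 a lower one, and 8 had a higher slope than in MYC-OFF (16.1% of all genes), with a median difference of 0.34. These slopes come from the libraries in which GDF15 and MDM2 rose. In SKNAS MYC-OFF against SHEP MYC-OFF, 11 of the 17 cell cycle genes were higher and 1 lower, beside 33.5% and 45.6% of all genes, with CDK1 at 1.27, CCNB2 at 1.17 and MCM5 at -0.94. Of 10 genes of the ATF4 stress response, which also drives GDF15, 8 were higher in SHEP MYC-ON (33.0% of all genes), led by ASNS at 1.83, PSAT1 at 1.42 and TRIB3 at 1.07, and VLDLR was lower at -1.13. In SKNAS 5 of 9 were higher (13.7% of all genes), ASNS at 1.34, PSAT1 at 0.99 and TRIB3 at 0.83 among them. The part of these changes in the levels of the 9 genes was not tested.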

How the data were processed

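Poly-A RNA of 83 libraries was sequenced, per the labels. The authors cleaned the reads, quantified them with Salmon 1.3.0 (version from the submitters' processing notes) against Gencode 35 on GRCh38, summarised transcripts to genes and deposited 1 table of TPM, length-scaled transcript shares, with symbols from Ensembl 101. TPM keeps no depth, so the depth of each library is unknown and no counting interval was given. A further line of the study and more SKNAS series were not analysed here. The authors tested counts with DESeq2, with time and condition in the model. TPM is not a count, so limma 3.58.1 in R 4.3.3 was run on log2(TPM + 1) with CT as a factor. Changes are on that scale, which understates the change of low genes.

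Genes with a mean of at least 1 TPM over the line were tested, in either line for comparisons between lines, and GDF15 passed the latter through SHEP alone. Calls needed a p of at most 0.05 after Benjamini-Hochberg adjustment over all genes and, for levels, a log2 change of at least 0.15. The fits were tested on simulated data with known changes. Time points of a single experiment per series served as replicates. With CT as a factor, p-values of levels measure the spread left among libraries of the same CT. In SKNAS each condition had a single library per CT. There the p-values of MYC-ON against MYC-OFF measure how that difference varied over the CTs. The 9 genes and all lists were chosen with earlier results of these data known. From each list, the called genes with the largest change in each direction, at most 3, were named, together with MYCN and the 5 genes closest to MDM2, and some genes under this rule are not reported here. CDKN1A in SHEP was named after its values were seen. The 2 SHEP series share numbers between conditions, and series differences in MYC-OFF and MYC-ON correlated at 0.49 over 14362 genes (0.0375 to 0.301 at single CTs). Positions are from Gencode 44 on GRCh38. Alternatives covered the filter, the pseudocount (0.1), scaling, the library median, the block, each series, series means, the CT term, early and late libraries and single libraries.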

Additional observations from a re-analysis of the deposited data

Results flagged for a closer look

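The effect of activated N-MYC differed between SKNAS and SHEP in the interaction test for 6 of the 8 genes that passed the filter in both lines, and for GDF15, which passed through SHEP alone. After rescaling, and likewise with the library median as covariate, 4 of the 8 differed. As SKNAS minus SHEP on the log2 scale, the difference was -1.90 for BTG2, -1.53 for GDF15, -0.67 for MDM4, -0.64 for SESN1, -0.51 for MDM2, -0.41 for RRM2B and 0.38 for FDXR. BTG2 was higher with N-MYC in 28 of 28 SHEP pairs and lower in 12 of 13 SKNAS pairs.

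The slope per day differed between MYC-ON and MYC-OFF in SHEP for 6 genes. The difference, MYC-ON minus MYC-OFF, was 0.87 for GDF15, 0.41 for MDM4, 0.39 for MDM2, 0.28 for RRM2B, 0.20 for FDXR and 0.16 for ZMAT3.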

How the results depend on the processing

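Of 460 values of the 9 genes under alternatives, 384 had the direction and side of the threshold reported, 35 lost the call, 12 gained it and 29 changed sign. Of 118 slope values, 104 did not change and 14 lost the call. Of 1417 values of other named genes, 1304 did not change and 108 lost the call, and in the SKNAS libraries of higher median 39 lost it and 1 did not. Causes were not tested. In SHEP, series means as replicates called 4 of the 9 genes (7534 of all genes). In SKNAS, the covariate called 5 (7544 of all genes) and CT24 to CT48 called 5 (9120 of all genes). CT52 on called 0 (1198 of all genes) and the libraries of higher median, which compare the conditions at CT32 and CT44 alone, called 0 (69 of all genes). For the difference of effects, the libraries of higher median called 3 (2602 of all genes), CT52 on called 4 (4492), and leaving out 1 series gave 5048 to 5214 of all genes.

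The 2 SHEP series share numbers, and with the replicate block 10370 of all genes were called in SHEP against 10314 without it, and 8401 against 8219 for the difference of effects. The block changed 1 call of the 9 genes, TP53I3 in the difference (-0.20).

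Signs changed in SHEP for RRM2B from CT52 (0.10), ZMAT3 without 1 series (-0.10 to 0.16) and at CT24 to CT48 (-0.10), BIRC5 from CT52 (-0.17), and CDKN1A with the covariate (-0.019), without 1 series (-0.085 to 0.18) and at CT24 to CT48 (-0.046). In SKNAS, after rescaling, with the covariate, with the libraries of higher median and from CT52, MDM4 was at 0.13, 0.29, 0.17 and 0.20, SESN1 at 0.12, 0.14, 0.071 and 0.041, and ZMAT3 at 0.064, 0.34, 0.26 and 0.29. RRM2B was at 0.087 with the covariate and 0.22 with the libraries of higher median, and MDM2 at -0.0048 with the covariate. For the difference of effects, RRM2B was at 0.085 with the covariate and 0.33 with the libraries of higher median, ZMAT3 at 0.24, 0.23 and, from CT52, 0.13, TP53I3 at 0.078 after rescaling and FDXR at -0.24 with the libraries of higher median. Between lines, BTG2 in MYC-OFF was at -0.057 from CT52, and MDM4 in MYC-ON at -0.17 to 0.21 without 1 series, -0.0050 without the CT term and -0.26 from CT52.

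Slopes in SKNAS MYC-OFF were called for 73 genes without the filter, 4 with a pseudocount of 0.1, 76 after rescaling, 62 with the covariate and, in an alternative chosen after seeing the data, 4849 without CT76 (1 of the 9 genes), against 21. In SKNAS MYC-ON the counts were 49 without the filter, 64 after rescaling, 207 with the covariate and, chosen after seeing the data, 2 with the libraries of higher median, with 2, 0, 2 and 0 of the 9 genes. The SKNAS slope difference was called for 18 after rescaling, 113 with the covariate and 1 with the libraries of higher median. In SHEP MYC-OFF leaving out 1 series gave 145 to 1968 genes and 0 to 0 of the 9, and the SHEP slope difference 3 to 4 of the 9. Rhythms went to 0 genes without either series, and to 1 in SHEP MYC-ON without the filter. Depth is unknown in TPM, so the counting error of low values such as GDF15 in SKNAS cannot be given.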
